A study of Mus musculus with 6 samples.

Results

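The genes described here are 10 genes of hepatic gluconeogenesis, 7 of them encoding enzymes or a transporter and 3 encoding regulators, out of 23284 genes counted in mouse liver RNA. They are G6pc, Pck1, Fbp1, Pcx, Slc37a4, Got1, Mdh1, Ppargc1a, Crtc2 and Creb1, taken by symbol from the count file of each liver. The list was chosen by function but with the fold changes of the comparison below already known, in which G6pc and Got1 were among the largest increases. Its values in that comparison, including whether a gene passed the threshold used for all genes, are therefore a description and no independent evidence, and no test of the list was made. Liver RNA had been sequenced from male FXR-floxed mice, in which the gene for the bile acid receptor FXR is flanked by sites for Cre recombinase. At 8 weeks of age every mouse had received an AAV8 vector with Cre and a second AAV8 vector with an FXR transgene, which was FXR-WT in 3 mice and Y67F-FXR in the other 3. In Y67F-FXR a tyrosine is replaced by phenylalanine and cannot be phosphorylated. Both vectors carried the TBG promoter, which is active in hepatocytes, so Cre and the transgene were directed to hepatocytes and not to other liver cells or the intestine. All 6 mice ate chow with 0.5% cholic acid, a bile acid that activates FXR, for 6 h before the livers were taken 4 weeks after injection. No group without a vector or without cholic acid was analysed here, and how much each mouse ate is not given.

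Gluconeogenesis makes glucose from lactate, amino acids and glycerol, and in the fasted state the liver is its main site. Pyruvate is carboxylated to oxaloacetate in mitochondria, its carbon leaves as malate or aspartate, and cytosolic enzymes carry it through phosphoenolpyruvate and fructose 6-phosphate to glucose 6-phosphate, which is cleaved to glucose in the endoplasmic reticulum. Glucagon raises transcription of several of these genes through cAMP, CREB and its coactivators, and insulin lowers it through loss of nuclear FOXO1.

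The upstream sequences of G6pc, Pck1 and Got1 are shown because these genes had the largest fold changes among the 10. They are the 250 bases before the RefSeq start in GRCm38.p6, 5′ to 3′ on the strand of the gene, at chr11:101367466-101367715 (plus strand) for G6pc, chr2:173152823-173153072 (plus strand) for Pck1 and chr19:43524606-43524855 (minus strand) for Got1. Capitals mark matches on either strand to the motifs TTACGTNA and TGACGTCA (cAMP response elements), TGTTTTG (the core of the insulin response sequence), AGGTCA (a nuclear receptor half-site), TATAAA and CCAAT.
G6pc: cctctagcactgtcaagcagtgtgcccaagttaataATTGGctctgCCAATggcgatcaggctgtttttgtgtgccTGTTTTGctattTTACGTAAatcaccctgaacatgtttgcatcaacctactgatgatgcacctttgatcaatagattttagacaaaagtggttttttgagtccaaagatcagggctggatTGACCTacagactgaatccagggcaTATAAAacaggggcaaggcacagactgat
Pck1: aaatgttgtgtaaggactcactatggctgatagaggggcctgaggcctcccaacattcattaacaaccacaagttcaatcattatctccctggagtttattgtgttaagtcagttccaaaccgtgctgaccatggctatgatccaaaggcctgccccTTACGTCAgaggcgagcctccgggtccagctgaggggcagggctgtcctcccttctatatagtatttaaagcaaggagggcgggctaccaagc
Got1: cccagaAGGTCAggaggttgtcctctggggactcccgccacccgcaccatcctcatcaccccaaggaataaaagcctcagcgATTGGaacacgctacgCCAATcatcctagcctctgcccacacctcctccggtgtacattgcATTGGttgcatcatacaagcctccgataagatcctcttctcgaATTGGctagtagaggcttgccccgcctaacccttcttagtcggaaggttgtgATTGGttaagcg

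In RefSeq, 9 of the 10 genes had a promoter sequence, and Crtc2 was not matched. Motifs were searched in the same window of 32851 promoters of 27025 genes. TTACGTNA was found in G6pc, 162 bases before the start and on both strands, and in Pck1, 93 bases before it, counted to the base of the motif farthest from the start. This motif was present in 0.788% of all promoters and in none of the other 7 genes matched. The element TGACGTCA, present in 1.55% of all promoters, was in none of the 9. TGTTTTG, held by 5.56% of promoters, was found only in G6pc among the 9, 174 bases before the start. AGGTCA was in 14.0% of promoters and matched G6pc, Slc37a4 and Got1. CCAAT, a motif found in 33.8% of promoters, had 5 matches in Got1, 3 in Pcx, 2 each in G6pc and Mdh1 and 1 in Fbp1. TATAAA, in 12.4% of promoters, lay 29 bases before the start of G6pc and 32 bases before one of the 3 starts of Slc37a4. These matches describe letters in one window, and binding was not measured.

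To determine how gluconeogenic genes differed between livers with FXR-WT and Y67F-FXR, the counts of the 10 genes were compared in the 3 livers of each group. Levels are in CPM, the reads of a gene relative to the library total, scaled by TMM factors. G6pc was 10.7-fold higher and Got1 5.07-fold higher in Y67F-FXR livers. Pck1 and Slc37a4 were 2.13-fold and 1.86-fold higher without passing the threshold, and Pcx and Fbp1 were 1.34-fold and 1.30-fold higher, also without passing it. Ppargc1a was 1.65-fold higher with overlapping groups and Crtc2 1.22-fold higher, while Mdh1 and Creb1 had log2 fold changes of 0.05 and -0.04. The livers of the groups did not overlap for 7 of the 10 genes.

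A gene was called when its adjusted p was under 0.05 in the edgeR quasi-likelihood test, after Benjamini-Hochberg correction over 12453 tested genes and its fold change was over 1.5. All 10 genes passed the filter on low counts. By this rule 2 of the 10 genes were called, both higher in Y67F-FXR, where 0.972% of all tested genes were called. Of all tested genes 0.546% were called higher and 0.426% lower in Y67F-FXR. The values of the groups did not overlap for 7 of the 10, all higher in Y67F-FXR, where this held for 20.6% of all tested genes, 10.2% as higher and 10.5% as lower. Of all tested genes 13.4% had an unadjusted p under 0.05. The median log2 fold change of the 10 genes was 0.57, and that of all tested genes was 0.01. Of all tested genes, 6474 of 12453 had a log2 fold change above 0, as did 9 of the 10. Since the list was proposed on this comparison, nothing is read from the difference. With 3 livers in each group, the smallest two-sided p of an exact permutation test is 0.10. The authors describe a library of its own for each biological sample, and the labels only number the livers. The spread between livers may be partly technical.

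Library totals were 19551113 to 22053320 reads, and the 10 most abundant genes took 18.4% to 20.4% of them. The 10 gluconeogenic genes took 0.433% to 0.542% of the reads in FXR-WT and 0.753% to 0.894% in Y67F-FXR libraries. Nr1h4, the mouse FXR gene, averaged 186 ± 30.2 and 175 ± 9.84 CPM (SD, n = 3 each) in FXR-WT and Y67F-FXR livers. The labels do not give the species of the transgene. The authors state that their flag-tagged FXR is human, without naming the AAV vectors there. If the transgene is human, its reads may align to the mouse gene only in part. How much of these levels came from the floxed gene and how much from the transgene was not tested, so they do not check the labels. The 8 hepatocyte markers summed to 99567 to 114244 CPM in FXR-WT and 95776 to 119342 CPM in Y67F-FXR livers. The 3 kidney markers (kidney also makes glucose) held at most 1 read in a liver. Summed levels were 129 to 193 and 105 to 291 CPM for 10 Kupffer cell and leukocyte markers, 201 to 215 and 143 to 205 CPM for 7 stellate cell markers, 166 to 193 and 172 to 178 CPM for 6 endothelial markers, and 46.2 to 71.2 and 54.1 to 60.6 CPM for 6 cholangiocyte markers, in FXR-WT and Y67F-FXR. Among the tested markers, 3 of stellate cells were lower in Y67F-FXR with the groups apart. They were Lrat, Col1a1 and Col3a1, with log2 fold changes of -1.15, -0.77 and -0.41. The same held for S100a8 (-2.73) and S100a9 (-1.95) of leukocytes, endothelial Lyve1 (-0.89) and hepatocyte Fgb (-0.53). None of these markers was called, and their part in the results below was not tested. Cholangiocyte Cftr, which did not pass the filter, had 3, 1 and 5 reads in FXR-WT and 0 in Y67F-FXR livers. The 5 erythrocyte markers summed to 80.4 to 89.3 CPM in FXR-WT and 86.5 to 114 CPM in Y67F-FXR livers, with the globin genes Hba-a1, Hba-a2 and Hbb-b1 at 0 in every liver, since their exons overlap other genes of the annotation and such reads were left out.

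**Figure D1:**
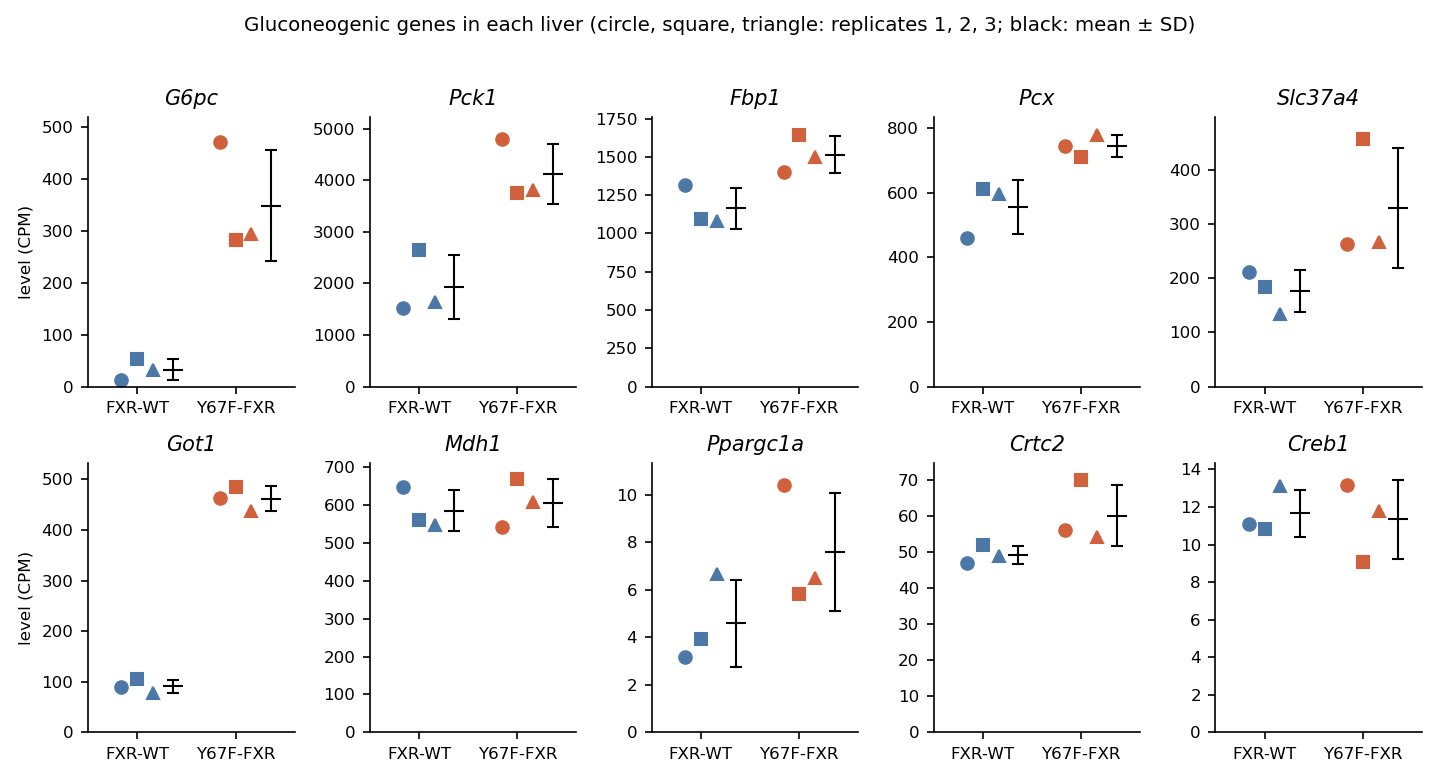
Level of each of the 10 gluconeogenic genes in CPM (vertical axes from 0) in the 3 FXR-WT and the 3 Y67F-FXR livers, 1 point per liver, with the mean ± SD in black. G6pc reached 52.6 CPM at most in FXR-WT and 281 CPM at least in Y67F-FXR livers, and the groups overlapped for Mdh1, Ppargc1a and Creb1.

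G6pc encodes the catalytic subunit of glucose 6-phosphatase, which releases free glucose in the last step of the route (mm9 chromosome 11, 101229044 to 101239217, plus strand, 5 exons). It had 13.3, 52.6 and 31.5 CPM in FXR-WT replicates 1 to 3 and 471, 281 and 293 CPM in Y67F-FXR replicates 1 to 3. Every Y67F-FXR liver was above every FXR-WT liver, and the lowest Y67F-FXR value was several times the highest FXR-WT value. The means were 32.5 ± 19.6 CPM (SD, n = 3) and 348 ± 106 CPM (SD, n = 3), and the log2 fold change was 3.42 (standard error 0.475, 95% interval 2.33 to 4.52). G6pc passed the threshold over all genes. These are whole livers, so RNA per hepatocyte and numbers of cells of a type were not measured. The summed hepatocyte markers overlapped between groups, at 99567 to 114244 CPM in FXR-WT and 95776 to 119342 CPM in Y67F-FXR livers. The part of cell numbers in the differences, here and for the genes below, was not tested. G6pc was also the most variable of the 10 within groups. Its highest FXR-WT value was 3.94 times the lowest, and its SD within groups on the log2 scale, 0.762, was at percentile 97.5 of all tested genes. The call was lost when FXR-WT replicate 3 (log2 fold change 3.40), Y67F-FXR replicate 1 (3.14) or Y67F-FXR replicate 3 (3.54) was left out, and with the replicate number as a block (3.55), while the fold change stayed above 3 on the log2 scale.

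Slc37a4 encodes the transporter that brings glucose 6-phosphate into the endoplasmic reticulum, where G6pc cleaves it (chromosome 9, 44206259 to 44211048, plus strand, 8 exons). Its level was 212, 184 and 135 CPM in FXR-WT and 264, 458 and 268 CPM in Y67F-FXR livers. The groups did not overlap, but FXR-WT replicate 1 was closer to Y67F-FXR replicates 1 and 3 than these were to Y67F-FXR replicate 2. The means were 177 ± 38.9 and 330 ± 111 CPM (SD, n = 3 each), and the log2 fold change of 0.90 (standard error 0.257, 95% interval 0.31 to 1.49) did not pass the threshold. It passed by DESeq2 (log2 fold change 0.91), and without Y67F-FXR replicate 2 it was 0.58.

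Pck1, cytosolic phosphoenolpyruvate carboxykinase, makes phosphoenolpyruvate from oxaloacetate (chromosome 2, 172978574 to 172984754, plus strand, 10 exons). It was the gene with the most reads among the 10, at 1519, 2639 and 1637 CPM in FXR-WT and 4798, 3756 and 3807 CPM in Y67F-FXR livers. FXR-WT replicate 2 was the highest of its group, as it was for G6pc, and Y67F-FXR replicate 1 the highest of the other. The means were 1932 ± 616 and 4120 ± 588 CPM (SD, n = 3 each), and the difference was 1.09 on the log2 scale (standard error 0.231, 95% interval 0.56 to 1.62). Pck1 did not pass the threshold with all 6 livers. It passed by DESeq2 (log2 fold change 1.10), with offsets for gene length (1.10) and without FXR-WT replicate 2 (1.38).

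Fbp1, fructose-1,6-bisphosphatase, acts between Pck1 and G6pc (chromosome 13, 62966113 to 62989596, minus strand, 7 exons). It had 1317, 1094 and 1079 CPM in FXR-WT and 1400, 1645 and 1502 CPM in Y67F-FXR livers, with FXR-WT replicate 1 close below the lowest Y67F-FXR liver. Its log2 fold change was 0.38 (standard error 0.136, 95% interval 0.07 to 0.70). Pcx, mitochondrial pyruvate carboxylase, catalyzes the first step from pyruvate (chromosome 19, 4510472 to 4621752, plus strand, 22 exons). Its level was 460, 611 and 597 CPM in FXR-WT and 745, 710 and 779 CPM in Y67F-FXR livers, and the difference was 0.42 on the log2 scale (standard error 0.143, 95% interval 0.09 to 0.75). For both genes all Y67F-FXR livers were above all FXR-WT livers, but neither passed the threshold, and both fold changes were under 1.5.

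Got1, cytosolic aspartate aminotransferase, turns aspartate from mitochondria into oxaloacetate and works in the malate-aspartate shuttle (chromosome 19, 43574243 to 43599095, minus strand, 9 exons). It had 89.3, 105 and 78.5 CPM in FXR-WT and 463, 485 and 436 CPM in Y67F-FXR livers. Livers of a group differed little, by at most 1.34 times in FXR-WT and 1.11 times in Y67F-FXR. The means were 91.0 ± 13.4 and 462 ± 24.5 CPM (SD, n = 3 each), and the log2 fold change was 2.34 (standard error 0.145, 95% interval 2.01 to 2.68). Got1 passed the threshold over all genes, and it did so in all 14 alternatives, with log2 fold changes from 2.25 to 2.46. Its SD within groups, 0.158 on the log2 scale, was at percentile 27.1 of all tested genes, against percentile 97.5 for G6pc.

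Mdh1, cytosolic malate dehydrogenase, is the partner of Got1 in the shuttle and makes oxaloacetate from malate (chromosome 11, 21456695 to 21471937, minus strand, 9 exons). Its level was 646, 560 and 547 CPM in FXR-WT and 542, 669 and 608 CPM in Y67F-FXR livers. The groups overlapped, and the log2 fold change was 0.05 (standard error 0.134, 95% interval -0.26 to 0.36), an interval that leaves out a change of 1.5-fold in either direction. Its sign turned to -0.02 when library totals were used without scaling factors. The ratio of Got1 to Mdh1 per kb of exon was 0.149 ± 0.0259 in FXR-WT and 0.729 ± 0.0728 in Y67F-FXR livers (SD, n = 3 each).

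Ppargc1a encodes PGC-1alpha, a coactivator induced in fasted liver that drives transcription of Pck1 and G6pc (chromosome 5, 51845488 to 51945160, minus strand, 13 exons). It had few reads, from 65 to 214 per library, and its level was 3.18, 3.93 and 6.65 CPM in FXR-WT and 10.4, 5.84 and 6.49 CPM in Y67F-FXR livers. FXR-WT replicate 3 was above Y67F-FXR replicates 2 and 3. The means were 4.59 ± 1.83 and 7.58 ± 2.47 CPM (SD, n = 3 each), and the log2 fold change of 0.72 (standard error 0.327, 95% interval -0.04 to 1.48) did not pass the threshold. Leaving out single livers moved it between 0.42 without Y67F-FXR replicate 1 and 1.09 without FXR-WT replicate 3. Long genes as a whole were not level between libraries, which touches this gene of 6495 exon bases. The median log2 deviation of the longest 20% of genes from their mean over the 6 livers was -0.13 in FXR-WT replicate 1, 0.11 in FXR-WT replicate 3, 0.19 in Y67F-FXR replicate 1 and -0.17 in Y67F-FXR replicate 2, and with offsets for gene length the log2 fold change of Ppargc1a was 0.70 (standard error 0.252).

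Crtc2, a coactivator that enters the nucleus after glucagon and joins CREB (chromosome 3, 90058203 to 90068047, plus strand, 14 exons), had 47.0, 51.9 and 48.8 CPM in FXR-WT and 56.2, 69.9 and 54.2 CPM in Y67F-FXR livers. The groups did not overlap, with 54.2 CPM in Y67F-FXR replicate 3 close above 51.9 CPM in FXR-WT replicate 2. Its log2 fold change was 0.29 (standard error 0.135, 95% interval -0.02 to 0.60). Creb1, the cAMP-responsive transcription factor itself (chromosome 1, 64579378 to 64651122, plus strand, 9 exons), had 11.1, 10.8 and 13.1 CPM in FXR-WT and 13.2, 9.06 and 11.8 CPM in Y67F-FXR livers. The groups overlapped, and the log2 fold change was -0.04 (standard error 0.176, 95% interval -0.45 to 0.37). None of the 3 regulators passed the threshold by edgeR or by DESeq2. CREB and CRTC2 are controlled largely by phosphorylation and PGC-1alpha also by acetylation, none of which RNA counts measure.

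**Figure D2:**
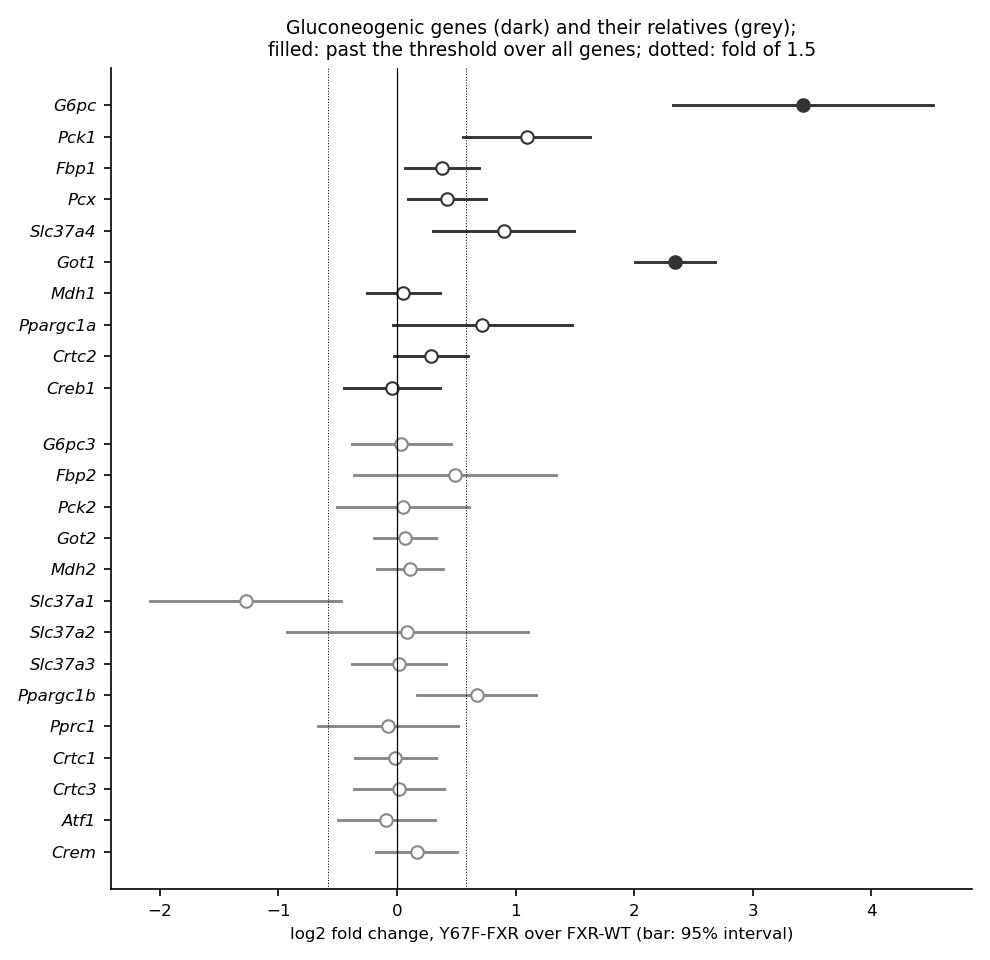
Log2 fold change of Y67F-FXR over FXR-WT livers (horizontal axis) with 95% intervals for the 10 gluconeogenic genes (dark) and 14 of their relatives (grey), where filled points passed the threshold over all genes and dotted lines mark a fold of 1.5. G6pc at 3.42 and Got1 at 2.34 lie to the right, and none of the relatives is filled.

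Per kb of exon, which allows levels of different genes to be compared, Fbp1 and Pck1 were the most abundant in FXR-WT livers, at 812 ± 93.0 and 738 ± 235 CPM per kb (SD, n = 3 each) with overlapping ranges. Mdh1 followed at 298, Pcx at 130, Slc37a4 at 84.9 and Got1 at 44.2 CPM per kb, with no overlap between neighbours. Crtc2 at 18.7 and G6pc at 14.5 CPM per kb overlapped, and Creb1 at 1.39 and Ppargc1a at 0.706 CPM per kb were lowest. The transcript of the last enzyme, G6pc, was below those of the other 6 enzyme and transporter genes in FXR-WT livers.

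In Y67F-FXR livers Pck1 came first, at 1575 ± 225 CPM per kb, and did not overlap Fbp1 at 1058 ± 86.1 (SD, n = 3 each). Mdh1 at 310 and Got1 at 224 CPM per kb came next. Pcx at 174, Slc37a4 at 158 and G6pc at 155 CPM per kb overlapped each with its neighbour, so their order is not settled. Crtc2 at 22.9 was below the enzymes, and Creb1 at 1.35 and Ppargc1a at 1.17 CPM per kb overlapped.

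Within each liver, the ratio of G6pc to Slc37a4, the enzyme and the transporter of one system, was 0.0586, 0.265 and 0.217 per kb in FXR-WT and 1.65, 0.570 and 1.02 per kb in Y67F-FXR livers. The ratio of Pck1 to G6pc was 97.6, 43.1 and 44.6 in FXR-WT and 8.75, 11.5 and 11.2 in Y67F-FXR livers. Both ratios separated the groups, since G6pc differed more than either partner.

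Relatives of the members were listed as 16 genes, namely related enzymes, other Slc37 transporters, and related transcription factors or coactivators. Of these G6pc2 and Got1l1 did not pass the filter. None of the 14 tested relatives was called by edgeR, 2 had an unadjusted p under 0.05, and DESeq2 called 1, Slc37a1. Over all 12453 tested genes, 13.4% had an unadjusted p under 0.05 and DESeq2 called 429. Livers separated by group for 2 of the 14, Slc37a1 and Ppargc1b, where 20.6% of all genes did so, and the median log2 fold change of the 14 was 0.05. G6pc3, the ubiquitous glucose 6-phosphatase, had a log2 fold change of 0.04, mitochondrial Pck2 of 0.05, mitochondrial Got2 of 0.07 and mitochondrial Mdh2 of 0.11. The 95% interval of each included 0.

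Side by side within each liver, Got1 was below Got2 in FXR-WT and slightly above it in Y67F-FXR livers. The ratio per kb was 0.247, 0.252 and 0.199 in FXR-WT and 1.15, 1.20 and 1.03 in Y67F-FXR. The ratio of G6pc to G6pc3 was 0.789, 3.39 and 2.41 in FXR-WT and 37.4, 17.4 and 16.4 in Y67F-FXR. Pck1 exceeded Pck2 in every liver, by 593 ± 236 times in FXR-WT and 1225 ± 390 times in Y67F-FXR, and the lowest Y67F-FXR ratio, 844, was close to the highest FXR-WT ratio, 832. Mdh1 to Mdh2 remained at 1.53 ± 0.0944 and 1.47 ± 0.0438 (SD, n = 3 each).

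**Figure D3:**
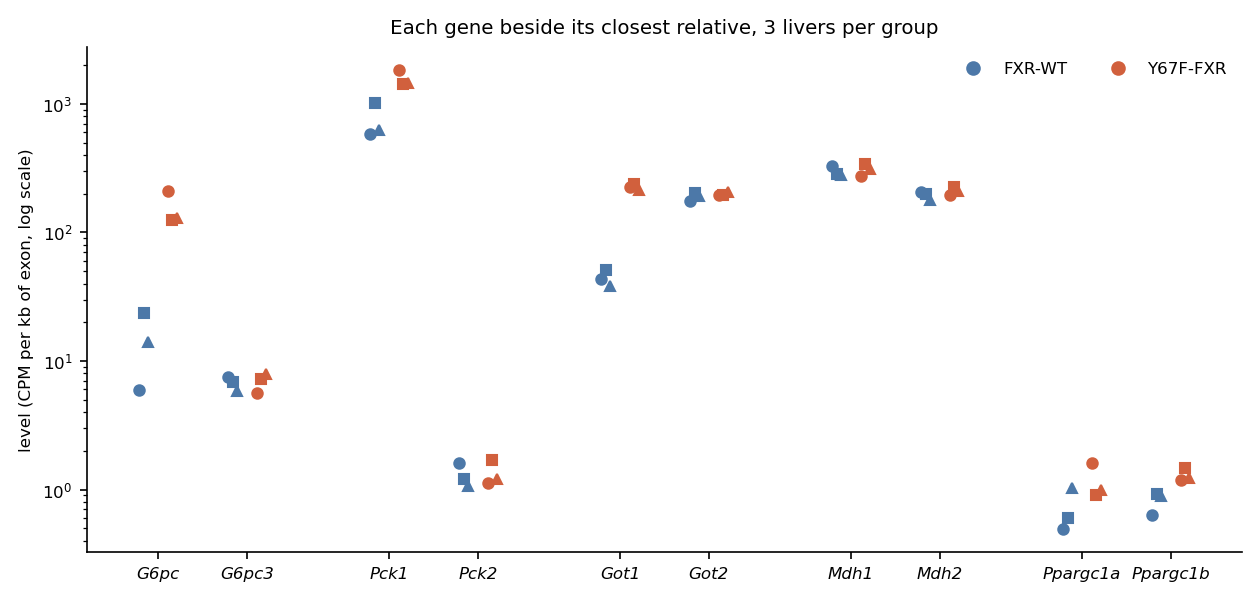
Level in CPM per kb of exon (log axis) of 5 gluconeogenic genes and their closest relatives in the 3 FXR-WT (blue) and 3 Y67F-FXR (red) livers, 1 point per liver. G6pc, Pck1, Got1 and Ppargc1b separate by group, while Mdh1, Ppargc1a, G6pc3, Pck2, Got2 and Mdh2 overlap.

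Among the other relatives, Slc37a1, a sugar phosphate exchanger, was at 4.55 ± 1.54 CPM in FXR-WT and 1.88 ± 0.704 CPM in Y67F-FXR livers (SD, n = 3 each), and its log2 difference between groups was -1.28 (SE 0.348), not past the threshold (adjusted p = 0.158 in the edgeR quasi-likelihood test). Its sign was opposite to that of Slc37a4. Ppargc1b, which encodes the related coactivator PGC-1beta, was at 2.98 ± 0.588 and 4.75 ± 0.563 CPM, a log2 fold change of 0.67 close to the 0.72 of Ppargc1a (adjusted p = 0.225 by edgeR). Fbp2 had a log2 fold change of 0.49, Slc37a2 of 0.09 and Slc37a3 of 0.02. Those of Pprc1, Crtc1, Crtc3, Atf1 and Crem were -0.07, -0.01, 0.02, -0.09 and 0.17.

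The rest of the route was followed in 22 further genes for enzymes, carriers and transporters of substrate entry, the shared steps of glycolysis and glucose export. Of these 21 were tested, 20 had a log2 fold change above 0 (6474 of 12453 over all genes), and none was called by edgeR. An unadjusted p under 0.05 was found for 5, where 13.4% of all genes had one, and DESeq2 called 2, Sds and Slc25a10, of its 429 among 12453. Livers separated by group for 7 of the 21, all higher in Y67F-FXR, where 20.6% of all genes were apart and 10.2% higher. They were Gpt2, Sds, Slc25a10, Slc25a11, Gapdh, Gpd1 and Gpd2. The median log2 fold change was 0.23. Eno1 was listed at 0 reads, as its exons overlap those of Gm5506 in the annotation.

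The smallest p-values among these steps were those of Slc25a10, Sds and Gpt2. Slc25a10, the mitochondrial dicarboxylate carrier, had 298, 406 and 366 CPM in FXR-WT and 516, 606 and 580 CPM in Y67F-FXR livers, a log2 fold change of 0.67 (adjusted p = 0.0969 by edgeR). Gpt2, mitochondrial alanine aminotransferase, went from 518 ± 48.0 to 758 ± 59.1 CPM (SD, n = 3 each), a log2 fold change of 0.55 (adjusted p = 0.106 by edgeR). Sds, serine dehydratase, which yields pyruvate, had 152, 67.9 and 65.1 CPM in FXR-WT and 198, 324 and 280 CPM in Y67F-FXR livers, a log2 fold change of 1.49 (adjusted p = 0.106 by edgeR). FXR-WT replicate 1 was high in its group, and without it the log2 fold change of Sds was 2.01 and the gene was called. Sds shares exon bases with Plbd2, and reads on both were not counted. Slc2a2, the glucose transporter of the hepatocyte membrane, had a log2 fold change of 0.61 with overlapping groups.

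Upstream regulators beyond the 3 above were listed as 31 genes, of which 23 had a log2 fold change above 0, with a median of 0.19. None was called by edgeR, 4 had an unadjusted p under 0.05 (13.4% of all genes), and DESeq2 called 2, Klf15 and Nr0b2 (429 of 12453 genes). The groups did not overlap for 5 of the 31, no larger a share than the 20.6% of all genes, with Foxo1, Klf15, Creb3l3 and Prkar1a higher and Nr0b2 lower in Y67F-FXR. Klf15, a transcription factor of amino acid catabolism and gluconeogenesis, was at 93.7 ± 9.31 and 149 ± 13.8 CPM (SD, n = 3 each), a log2 fold change of 0.67 (adjusted p = 0.0704 by edgeR). Nr0b2 encodes SHP, a repressor induced by FXR, and had 81.9, 63.7 and 59.5 CPM in FXR-WT and 6.42, 25.9 and 7.59 CPM in Y67F-FXR livers. The difference, -2.37 on the log2 scale with an SE of 0.498, missed the threshold (adjusted p = 0.0862 by edgeR). Y67F-FXR replicate 2 was the highest of its group, and without it the value was -3.30 and the gene was called. Creb3l3, a liver factor that acts with PGC-1alpha in fasting, differed by 0.45 on the log2 scale (adjusted p = 0.184 by edgeR), and Foxo1, which insulin keeps out of the nucleus, of 0.36.

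Other genes known to respond to cAMP or FOXO1 in liver were listed as 14, of which Sds, Klf15, Sik1 and Crem are also on a list above. Of the 12 that were tested, 9 had a log2 fold change above 0, with a median of 0.58. None was called by edgeR, 8 had an unadjusted p under 0.05 (13.4% of all genes), and DESeq2 called 4, namely Sds, Klf15, Pdk4 and Irs2 (429 of 12453 genes). The groups did not overlap for 5 of the 12, where 20.6% of all genes were apart, with Pdk4, Irs2, Sds and Klf15 higher in Y67F-FXR and Fgf21 lower. Pdk4, the kinase that turns off pyruvate dehydrogenase and so spares pyruvate, was at 3.12 ± 0.536 and 6.23 ± 2.17 CPM (SD, n = 3 each), a log2 fold change of 1.00 (adjusted p = 0.166 by edgeR). Irs2, an adaptor of the insulin receptor, was at 0.733, 0.776 and 2.12 CPM in FXR-WT and 8.41, 2.13 and 4.30 CPM in Y67F-FXR livers, a log2 fold change of 2.01 (adjusted p = 0.170 by edgeR), with FXR-WT replicate 3 and Y67F-FXR replicate 2 next to each other. It shares exon bases with 9530052E02Rik. Igfbp1, a FOXO1 target, overlapped between groups at 52.1, 19.0 and 10.4 CPM in FXR-WT and 96.1, 66.7 and 44.4 CPM in Y67F-FXR livers. Fgf21 was at 63.0, 14.6 and 14.6 CPM in FXR-WT and 8.70, 12.6 and 8.35 CPM in Y67F-FXR livers, with FXR-WT replicate 1 far above the rest.

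Over the 4 lists together, 74 of 79 genes were tested, and 58 had a log2 fold change above 0, against 6474 of 12453 over all genes. None was called by edgeR, 16 had an unadjusted p under 0.05 (13.4% of all genes), and DESeq2 called 7 (429 of 12453 genes). Groups were apart for 17 of the 74, which is 14 higher and 3 lower in Y67F-FXR, where 20.6% of all tested genes did not overlap. The median log2 fold change was 0.18, and that of all genes was 0.01. As these lists were chosen with earlier results of these data known, nothing is read from the difference.

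**Figure D4:**
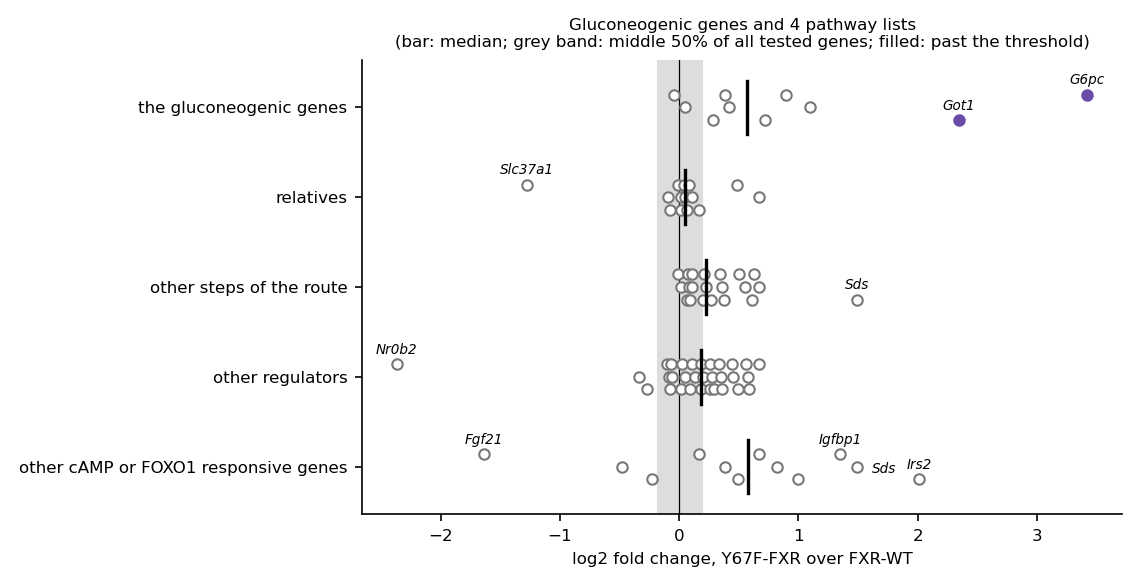
Log2 fold change of Y67F-FXR over FXR-WT livers (horizontal axis) for each tested gene of the 10 gluconeogenic genes and of 4 pathway lists, with the median of each list as a bar and the middle 50% of all tested genes as a grey band. Filled points passed the threshold, namely G6pc and Got1. The medians of the 4 lists run from 0.05 for the relatives to 0.58 for the cAMP or FOXO1 responsive genes.

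The genes whose levels most resembled those of G6pc, Got1 and Ppargc1a were found by the root mean square distance between centred log2 CPM over the 6 livers, among 11513 genes that averaged 1 CPM or more. Closest to G6pc were Plin4 at a distance of 0.528, Ppp1r3g at 0.667 and Gm15441 at 0.681, where the median gene was at 1.91. Closest to Got1 were Mfsd2a at 0.311, Arl4d at 0.313 and 2410018M08Rik at 0.331, with a median of 1.20. Closest to Ppargc1a were Zbtb11 at 0.141, Rbms1 at 0.157 and Slc25a32 at 0.158, with a median of 0.581. Plin4, Gm15441 and Zbtb11 share exon bases with other genes. Ppp1r3g averaged 0.236 CPM in FXR-WT and 4.79 CPM in Y67F-FXR livers, so it reached the mean of 1 CPM only through Y67F-FXR. None of these 9 genes was on a pathway list. All 9 were picked for their small distances, so being nearer than the median gene follows from the choice.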

How the data were processed

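The authors sequenced liver RNA on a HiSeq2000 as paired-end reads of 100 bp, and per the labels processed it with bcl2fastq 2.17.1.14, Trimmomatic 0.36, FastQC 0.11.5, STAR 2.5.3a and featureCounts 1.4.6-p4 on UCSC mm9 genes. The deposited values are raw counts per gene, without strand, with both mates of a pair entered separately and without reads that hit more than 1 gene or place. A deposited table of the authors' own comparison (fold change, mean level, p-value and false discovery rate) was not used.

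The tests were run with edgeR 4.0.16 in R 4.3.3 (filterByExpr, TMM, glmQLFit, glmQLFTest), with limma 3.58.1 loaded by edgeR and with DESeq2 1.42.0 as an alternative. Figures were drawn by matplotlib 3.10.9 under Python 3.11.15. Groups came from the sample titles. Genes were called at adjusted p under 0.05 and a fold over 1.5. Log2 CPM used a prior count of 2. The common biological coefficient of variation was 0.194. Totals of 19551113 to 22053320 reads per library leave genes such as Ppargc1a with few reads. Median chi-square values between livers of a group were 2.21 to 7.84 per gene, above counting noise, and no livers were merged. Fits were tested on simulated counts.

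The members and lists were chosen with earlier results of these data known. Genes named are the members, their tested relatives, in each list those called and the 3 of smallest p, the 3 nearest patterns of G6pc, Got1 and Ppargc1a, Nr1h4 and the marker lists. Other genes of the lists were named after their values were seen. Some related genes are not reported here and were left out of the lists, so the list counts do not cover the whole pathway. Promoters are from RefSeq in GRCm38.p6, and their coordinates were not set against those of mm9. Alternatives were other scaling factors, filters, DESeq2, the replicate number as a block, offsets for gene length (loess, span 0.3), no fold minimum and each liver left out.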

Additional observations from a re-analysis of the deposited data

How the results depend on the processing

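The 121 genes called, 2 members called and 0 pathway genes called changed little with DESeq2 size factors, upper quartile factors, library totals, a filter of over 1 CPM in at least 3 libraries or no fold minimum, which gave 118 to 123 genes, 2 members and 0 pathway genes. With library totals 43.3% of the calls were higher in Y67F-FXR, against 56.2% with TMM factors, and the median of all genes moved from 0.01 to -0.06. Without a filter on low counts there were 167 genes and 1 pathway gene (Nr0b2). The DESeq2 Wald test called 429 genes, 4 members (G6pc, Pck1, Slc37a4 and Got1) and 7 pathway genes, and gene length offsets called 247 genes, 3 members and 3 pathway genes. Leaving out single livers gave 9 (without FXR-WT replicate 3) to 66 genes, 1 to 3 members and 0 to 1 pathway genes (Sds without FXR-WT replicate 1, Nr0b2 without Y67F-FXR replicate 2), with fewer samples in each fit. The other counts were 50 without FXR-WT replicate 2 and 36, 60 and 26 without Y67F-FXR replicates 1, 2 and 3.

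The labels do not say that replicate numbers pair the mice, and the deviations of same-numbered livers correlated at -0.52, -0.08 and 0.12, with no liver closest to its own number. With a replicate block 8 genes, 1 member (Got1) and 0 pathway genes were called, and G6pc, at a log2 fold change of 3.55, was no longer called. The cause was not tested for any of these changes.

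Signs turned only for Mdh1 and Creb1, which had values near 0 throughout. Mdh1 was -0.0202 with library totals and -0.0346 without Y67F-FXR replicate 2, the lowest of its leave-one-out values, which reached 0.13. Creb1 was 0.0513 without FXR-WT replicate 3 and 0.0850 without Y67F-FXR replicate 2, in a leave-one-out range from -0.16 to 0.09. The other 8 members kept their direction in all 14 alternatives. Alternatives for Slc37a1, Ppargc1b, Gpt2, Slc25a10, Sds, Klf15 and Nr0b2 were added after the data were seen, and each kept its direction in all 14. Ppargc1a had 65 to 214 reads per library and a 95% interval from -0.04 to 1.48, and the share of counting error in it was not tested.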
